A study of Mus musculus with 12 samples.

Results

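The regions described here were 2626 H3K4me3 peaks of mouse intestinal crypts that lay far from the start of any protein-coding transcript and were also marked in villi. They were chosen from the crypts H3K4me3 list of 16489 peaks by 4 conditions. A region was under 4 kb wide (15770 peaks), overlapped a villi H3K4me3 peak by at least 1 bp (14672 of those), lay more than 5 kb from every protein-coding transcript start of GENCODE (2789 of those) and overlapped no crypts H3K27me3 peak, which left out 163. The members made up 15.9% of the list. Of all crypts H3K4me3 peaks, 93.3% overlapped a villi peak, a share that bears on the selection only. Width, sharing with villi, distance to coding starts and crypts H3K27me3 are therefore properties of the selection and are given as descriptions.

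The chromatin came from the crypts, which hold the stem and proliferating cells of the small intestine and its Paneth cells, and from the villi, which are covered by differentiated enterocytes. Histone modifications were profiled by ChIP-Rx, a ChIP-seq variant in which Drosophila S2 chromatin is added to each sample as a spike-in. The labels give no strain, genotype, age or sex, and 1 library was available per compartment and modification. Crypts and villi are tissue fractions and hold more than 1 cell type, and fewer marked cells and a weaker mark per cell cannot be told apart. Peaks at coding starts of 8 of 8 epithelial marker genes were called in both compartments. Of 6 leukocyte markers, 0 had an H3K4me3 peak in crypts and 3 in villi (Ptprc, Cd3e and Cd8a), and of 7 stromal and muscle markers 2 (Vim and Pdgfra) had one in crypts and 3 in villi (also Col1a1). The part of such cells in the values from villi was not tested.

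H3K4me3 is deposited at the start sites of transcribed genes and at many CpG-rich promoters, and it extends over the first nucleosomes downstream of the start. H3K4me1 covers enhancers and flanks promoters, where the nucleosomes next to the start carry trimethylation instead. H3K4me3 away from annotated coding genes can mark promoters of long noncoding RNAs, of microRNA precursors and of small nucleolar RNA host genes, regions next to tRNA genes, alternative promoters that an annotation lacks, and strongly active enhancers.

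Without replicates, no test between compartments or between sets of regions was possible. Shares are given with 95% Wilson intervals and medians with binomial order-statistic intervals. These cover counting error only, and neighbouring regions are not independent. Members were set beside 3 other sets cut from the same list by otherwise identical conditions, which were 9965 shared peaks within 1 kb of a coding start (promoter peaks), 649 shared peaks 1 to 5 kb from one, and 618 far peaks without a villi peak.

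To show what kinds of sequence carried the mark, the central 300 bases of the highest-scoring member are printed for 3 classes, with CpG dinucleotides in capitals, on the plus strand of GRCm38.p6 from RefSeq. The first lies at chr2:94178341-94178640 inside the peak at the start of the long noncoding RNA gene Mir670hg. The second lies at chr2:35662005-35662304, in a peak with the start of a noncoding Dab2ip transcript inside it or within 1 kb. The third lies at chr9:40414772-40415071 in an intron of Gramd1b, where GENCODE had no start.
Mir670hg: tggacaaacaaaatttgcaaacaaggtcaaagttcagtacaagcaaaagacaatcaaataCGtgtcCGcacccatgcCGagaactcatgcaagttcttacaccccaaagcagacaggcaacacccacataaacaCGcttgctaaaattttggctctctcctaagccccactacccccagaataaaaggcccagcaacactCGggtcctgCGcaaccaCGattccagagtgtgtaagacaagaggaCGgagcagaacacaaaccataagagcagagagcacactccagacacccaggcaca
Dab2ip: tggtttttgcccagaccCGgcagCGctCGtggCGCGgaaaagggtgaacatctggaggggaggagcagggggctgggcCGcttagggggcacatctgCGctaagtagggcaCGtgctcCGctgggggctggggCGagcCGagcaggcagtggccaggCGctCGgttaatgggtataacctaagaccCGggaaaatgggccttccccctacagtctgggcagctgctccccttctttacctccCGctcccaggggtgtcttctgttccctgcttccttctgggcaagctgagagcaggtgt
Gramd1b: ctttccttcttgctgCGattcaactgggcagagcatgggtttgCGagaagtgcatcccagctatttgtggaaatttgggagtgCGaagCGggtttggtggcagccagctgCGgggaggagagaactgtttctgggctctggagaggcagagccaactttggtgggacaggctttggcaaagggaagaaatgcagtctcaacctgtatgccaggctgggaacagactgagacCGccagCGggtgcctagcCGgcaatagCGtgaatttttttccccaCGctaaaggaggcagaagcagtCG
These windows held 8, 15 and 11 CpG dinucleotides, and their observed to expected CpG ratios were 0.476, 0.501 and 0.506. None of the 11 motifs described below was found in them.

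A further pair of windows shows matches to motifs of sequence-specific factors, in capitals. At chr7:73618366-73618665, in a member that lies 75693 bp from the nearest coding start, that of Chd2, the capitals mark a match to an ETS motif and a match to the CTCF motif, both on the minus strand. At chr14:19708293-19708592, in a member 41831 bp from the coding start of Nid2, they mark a minus-strand match to the HNF4 motif. The Nid2 member was chosen after its values were seen, as the highest-scoring member with this match and no annotated start.
Chd2: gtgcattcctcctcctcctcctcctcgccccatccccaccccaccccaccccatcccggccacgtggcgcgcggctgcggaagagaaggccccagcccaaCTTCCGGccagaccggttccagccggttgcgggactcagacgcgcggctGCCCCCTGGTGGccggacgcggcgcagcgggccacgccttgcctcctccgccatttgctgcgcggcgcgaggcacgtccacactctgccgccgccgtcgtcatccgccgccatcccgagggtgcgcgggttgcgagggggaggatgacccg
Nid2: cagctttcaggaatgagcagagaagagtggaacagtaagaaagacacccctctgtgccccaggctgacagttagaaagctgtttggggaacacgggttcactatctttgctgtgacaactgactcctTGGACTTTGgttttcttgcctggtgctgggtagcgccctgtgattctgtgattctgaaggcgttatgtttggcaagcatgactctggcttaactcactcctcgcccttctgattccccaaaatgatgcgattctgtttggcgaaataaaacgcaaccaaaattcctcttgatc
The Chd2 window was CpG-rich, with 37 CpG dinucleotides and a ratio of 0.928, and the whole peak was covered by crypts H3K4me1 over 26.2% of its length. The Nid2 window held 7 CpG dinucleotides, with a ratio of 0.405, and its peak lay wholly under H3K4me1 in both compartments.

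Most members had no annotated start. Of the 2626 regions, 651 (24.8%, 95% interval 23.2 to 26.5%) had a GENCODE start of a noncoding transcript inside the peak or within 1 kb of it, against 57.6% of all crypts H3K4me3 peaks. The start lay inside the peak for 514 of them. Each member was put in the first class that held, in the order given here. Long noncoding RNA genes accounted for 396 members (15.1%), noncoding transcripts of protein-coding genes for 125 (4.76%), pseudogenes for 95 (3.62%) and small RNA genes for 35 (1.33%), and 1975 members (75.2%) had no such start. Counted without that order, 137 members had a start of a noncoding transcript of a coding gene, 105 of a pseudogene and 69 (2.63%) of a small RNA gene. Noncoding transcripts of coding genes here are all transcripts of such genes that GENCODE types as other than protein-coding. Whether they hold a reading frame was not examined. Promoter peaks had a noncoding start in 71.5% of cases (70.6 to 72.3%), shared peaks at 1 to 5 kb in 22.8% (19.7 to 26.2%) and far peaks without a villi peak in 14.7% (12.1 to 17.7%). For long noncoding RNA starts, the 15.1% of members (13.8 to 16.5%) was near the 14.0% of all crypts H3K4me3 peaks (13.4 to 14.5%) and the 13.4% of promoter peaks, and the 1 to 5 kb and unshared far peaks had 8.63% and 7.77%. By score the shares parted. Among the higher-scoring 50% of the list, 97 of 223 members (43.5%, 37.2 to 50.1%) had a long noncoding RNA start against 14.9% of promoter peaks (14.1 to 15.7%), and among the lower-scoring 50% 12.4% (11.2 to 13.8%) against 9.34% (8.31 to 10.5%). The lower share of members with any noncoding start against promoter peaks includes noncoding transcripts of coding genes, whose starts the distance condition largely removes. For any noncoding start, the interval of the members overlapped that of the 1 to 5 kb peaks and lay above that of the unshared far peaks. The latter score low, with a median percentile of 7.14. The lowest quintile of members by crypts score, with a median percentile of 6.03, had such a start in 12% (9.49 to 15.1%). That interval overlapped the one of the unshared far peaks.

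**Figure D1:**
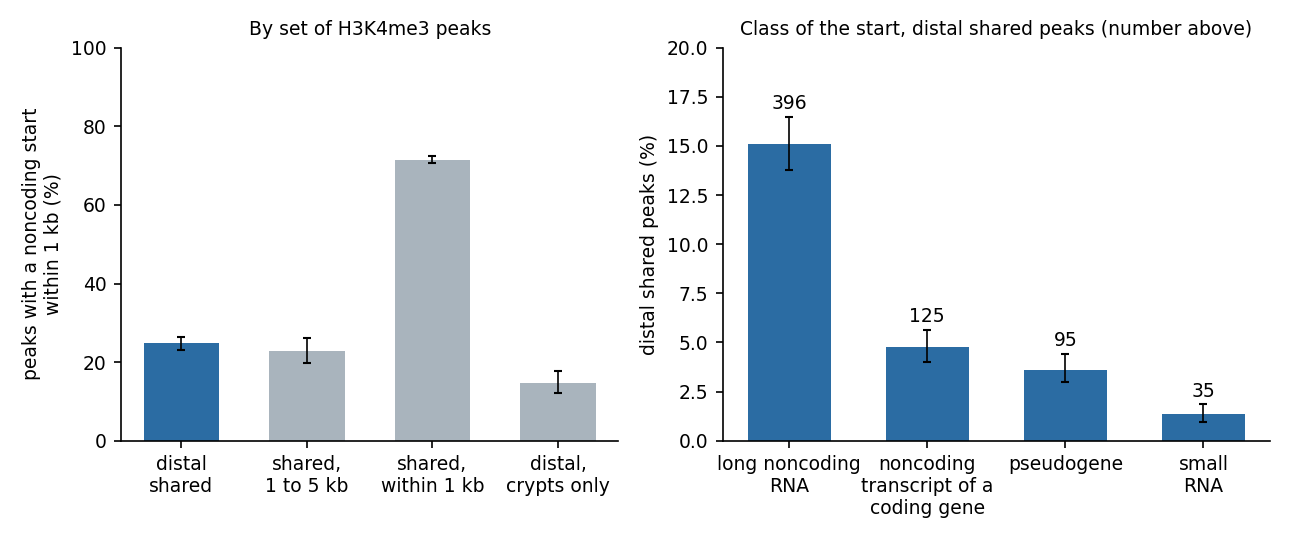
Left, share of peaks (%) with a noncoding start within 1 kb in 4 sets of crypts H3K4me3 peaks; right, number and share of the 2626 distal shared peaks by class of start. Bars are shares and error bars 95% Wilson intervals; the distal shared peaks stand at 24.8%, the promoter peaks at 71.5%, and long noncoding RNA genes are the largest class with 396 peaks.

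The annotation held 13374 long noncoding RNA genes, of which 2354 had a crypts H3K4me3 peak within 1 kb of a start and 428 a member. By score, the deposited value per peak and here taken as the −log10 p of the call, the highest member of the whole set was the peak at the long noncoding RNA gene Mir670hg. It lay at chr2:94177753-94179229 and spanned 1477 bp in crypts and 1401 bp in villi. Scores rank peaks within a list only, and its scores of 648 and 386 stood at the 99.4 and 96.4 percentile of the crypts and villi lists. The peak enclosed the annotated start at position 94178915 on the minus strand. The microRNA genes of this locus lie upstream of that start. The next in the class was 1110038B12Rik, a host of the small nucleolar RNA gene Snord52, with a crypts peak of 2225 bp, a villi peak of 2273 bp and a crypts score of 571. Dleu2, the host of miR-15a and miR-16, had a crypts peak of 3308 bp that scored 558 and a villi peak of 3299 bp. Snhg7os and Tmem250-ps followed with scores of 469 and 444, and at Tmem250-ps curated RefSeq mRNAs also start. A curated RefSeq mRNA start lay within 1 kb of 24 of the 223 members in the higher-scoring 50% of the list (10.8%) and of 56 of all members (2.13%). All 5 peaks overlapped H3K4me1 in both compartments but were covered by it only in part, from 13.8% of the crypts peak at Dleu2 to 54.5% at 1110038B12Rik.

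Genes that host small nucleolar RNAs, which guide chemical modification of ribosomal RNA, were represented by 8 of the 17 listed. Over all 13374 long noncoding RNA genes, 428 had a member, among 2354 with a crypts H3K4me3 peak. Of the other listed hosts, 7 had peaks within 5 kb of a coding start, Gas5 and Snhg1 among them, and 2 (Snhg11 and Snhg14) had no crypts H3K4me3 peak. The members at Snhg20, Snhg12, Snhg6, Snhg8, Snhg5 and Snhg15 were between 1602 and 2691 bp wide in crypts and scored from 221 to 372. The villi peak was narrower than the crypts peak at each of the 8 members, as it was in the median of the highest-scoring quintile of members. Crypts H3K4me1 overlapped all 8 members of this list, near the 88.8% of all members.

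Of 13 listed nuclear long noncoding RNAs, 5 had a member and 5 (H19, Kcnq1ot1, Meg3, Miat and Xist) had no crypts H3K4me3 peak. The start of Tug1 lay close to a coding start, and the peaks at Malat1 and Neat1 were left out by width, sharing or H3K27me3. Of all 13374 long noncoding RNA genes, 2354 had a crypts H3K4me3 peak and 428 a member. Dleu2 held 2 members, and Pvt1, the neighbour of Myc, held 1 of 984 bp that was wholly covered by crypts H3K4me1. The members at Airn and Peg13, which are transcribed from the paternal chromosome at imprinted loci, overlapped H3K4me1 in neither compartment, and their widths were 1610 and 2054 bp. The member at Firre on the X chromosome, 2183 bp wide, overlapped H3K4me1 in villi only, over 18.2% of its length.

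MicroRNA genes lay within or downstream of several members. Mature sequences from RefSeq (GRCm38.p6) were matched by position on the same strand to the noncoding genes that start at members, which gave 62 mature microRNAs from 34 genes inside or downstream of 21 members. Of 1189 GENCODE genes whose names begin with Mir, 19 had a member within 1 kb of their start, 1019 had no crypts H3K4me3 peak there and 138 had peaks close to coding starts. Of the 19, 16 were matched in this way. The sequences below were chosen because families that share a seed, bases 2 to 8 in capitals, came from different members or from the same host, or because the microRNA gene itself lay in the peak.
let-7a-5p: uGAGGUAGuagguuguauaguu
let-7b-5p: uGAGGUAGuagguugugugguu
let-7i-5p: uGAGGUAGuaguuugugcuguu
miR-15a-5p: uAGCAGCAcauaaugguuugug
miR-16-5p: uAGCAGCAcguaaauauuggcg
miR-17-5p: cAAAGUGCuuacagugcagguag
miR-106a-5p: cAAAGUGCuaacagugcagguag
miR-148a-3p: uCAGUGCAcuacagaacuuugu
miR-194-5p: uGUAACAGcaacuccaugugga
miR-215-5p: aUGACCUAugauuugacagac
miR-802-5p: uCAGUAACaaagauucauccuu
The mature sequences of miR-15a and miR-16 share a seed and come from the host Dleu2, which holds 2 members. The let-7 seed occurred in 6 of the mature microRNAs. Those of the let-7a, let-7d and let-7f cluster lay 6418 to 8579 bp from a 2490 bp member on chromosome 13 at the host 6720427I07Rik, those of let-7b and let-7c lay about 52 kb downstream of a 1435 bp member at Lncppara on chromosome 15, and let-7i lay inside a 3012 bp member on chromosome 10. The seed of miR-17-5p, a member of the proliferation-associated cluster of Mir17hg, was shared by miR-20a-5p of the same cluster and by miR-106a-5p on the X chromosome. At Mir148a, on chromosome 6, the crypts peak spanned 2229 bp and the villi peak 1590 bp. At Mir194-1 and Mir215, an epithelial microRNA pair on the same strand of chromosome 1, the crypts peak spanned 2437 bp and the villi peak 2981 bp. The crypts peak scored 268 and overlapped H3K4me1 in neither compartment. At Mir802 the widths were 2405 and 2438 bp.

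Of the 125 members in the class of noncoding transcripts of protein-coding genes, 114 touched an exon of a coding gene. The highest-scoring were at Dab2ip, a RAS GTPase-activating protein gene (2850 bp in crypts, 2575 bp in villi), Scml4, a Polycomb-related gene (2886 and 2628 bp), Aff1, a gene of transcription elongation complexes (2339 and 2464 bp), and Styk1, a kinase gene (2741 and 2937 bp). All 4 overlapped H3K4me1 in both compartments. Among the pseudogenes, the highest was the processed pseudogene Gm10060 on chromosome 8, with a 1103 bp peak of score 546 that overlapped no H3K4me1. It was followed by Btnl5-ps, of the butyrophilin-like family, with 3489 bp in crypts and 4163 bp in villi, and by Gm20257. The authors kept 1 alignment per read, so signal at multi-copy sequences such as processed pseudogenes may belong to another copy. Within the class of small RNA genes, which leaves out members with a host gene start such as those at 1110038B12Rik and Snhg7os, the highest were the small nucleolar RNA gene Gm22711, which overlaps Snord104, and the microRNA genes Mir148a and Mir8120, with scores of 402, 292 and 287.

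The 1975 members without a GENCODE start were looked up in RefSeq, a choice made after the values were seen. Of these, 222 had a RefSeq noncoding start within 1 kb (25 a curated one), 87 a RefSeq mRNA start (18 a curated one), and 1673 had neither. The noncoding starts were of long noncoding RNAs at 175 members and of tRNA genes, which the GENCODE file used did not list, at 53. The label of the set rests on GENCODE: 255 members, 65 of them by curated transcripts, lay within 5 kb of a RefSeq mRNA start. The highest-scoring member without a GENCODE start was in the intron of Gramd1b, a sterol transporter gene, at chr9:40414346-40415497, with 1152 bp in crypts and 1030 bp in villi and a score of 380, and predicted RefSeq mRNAs of Gramd1b start there. It overlapped no H3K4me1. The next were the members nearest to Zfp213, Fam83a, Prdm2 and Wnt11, with scores from 318 to 372. Of these, the members nearest to Zfp213, Fam83a and Wnt11 lay at tRNA genes and the one in Prdm2 at predicted RefSeq mRNA starts.

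tRNA genes are transcribed by RNA polymerase III from promoter elements inside the gene, named the A and B boxes. A tRNA start lay within 1 kb of 67 members, among 129 such peaks in the whole list. Of 425 tRNA genes in RefSeq, 206 had a crypts H3K4me3 peak within 1 kb and 114 a member. Every standard amino acid was represented among these genes. On chromosome 13 lay 22 of the 67 members, against 5.60% of all members. The share of the 425 tRNA genes on that chromosome was not counted. The lookup of tRNA genes and the choice of the B box letters were made after the values were seen. Letters of the B box (GTTCNANNC) were searched in the tRNA genes. They were found on the gene's own strand in 109 of the 114 tRNA genes at members and in 375 of all 425. Peaks at tRNA genes were wide and strong for the set, with a median width of 1755 bp (1514 to 1873) against 884 bp (861 to 904) for all members, and a median CpG ratio of 0.674 (0.642 to 0.696). The villi peaks here were narrower than the crypts peaks, by a median log2 ratio of -0.13 (-0.21 to -0.08). Crypts H3K4me1 overlapped 56 of the 67 but lay over the centre of 26.

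H3K4me1 overlapped most members, as it did most H3K4me3 peaks. In crypts, 2331 members (88.8%, 87.5 to 89.9%) overlapped an H3K4me1 peak against 91.5% of all crypts H3K4me3 peaks, and in villi 2223 (84.7%, 83.2 to 86.0%) against 87.9%. Overlap as such was thus close to the share in the whole list. It occurred in both compartments at 2125 members (80.9%), in crypts only at 206 (7.84%), in villi only at 98 (3.73%) and in neither at 197 (95% interval 6.56 to 8.57%), against 84.4%, 7.11%, 3.58% and 4.94% of all crypts H3K4me3 peaks. The compartments differ in library, so these single-compartment counts are descriptions.

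Members and promoter peaks differed in the place of H3K4me1 within the peak, and in this the members resembled the other peaks away from coding starts. The centre of the peak lay inside a crypts H3K4me1 peak for 77.3% of members (75.6 to 78.8%) against 47.5% of all peaks and 29.2% of promoter peaks (28.4 to 30.1%). In villi the centre was covered at 71.3% of members, at 46.6% of all peaks and at 30.3% of promoter peaks. The share in crypts was 81.0% (77.9 to 83.9%) for shared peaks at 1 to 5 kb and 89.3% (86.6 to 91.5%) for far peaks without a villi peak. Crypts H3K4me1 covered the whole peak at 59.8% of members, 66.9% of the 1 to 5 kb peaks and 81.2% of the unshared far peaks, and villi H3K4me1 at 49.3% of members. The median member was covered by crypts H3K4me1 over 100% of its length, the median promoter peak over 51.5% (50.9 to 52.0%). H3K4me1 that reached past both ends and left the centre free was found at 34.3% of promoter peaks, at 4.30% of members (3.59 to 5.15%), at 5.39% of the 1 to 5 kb peaks and at 0 of the 618 unshared far peaks.

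**Figure D2:**
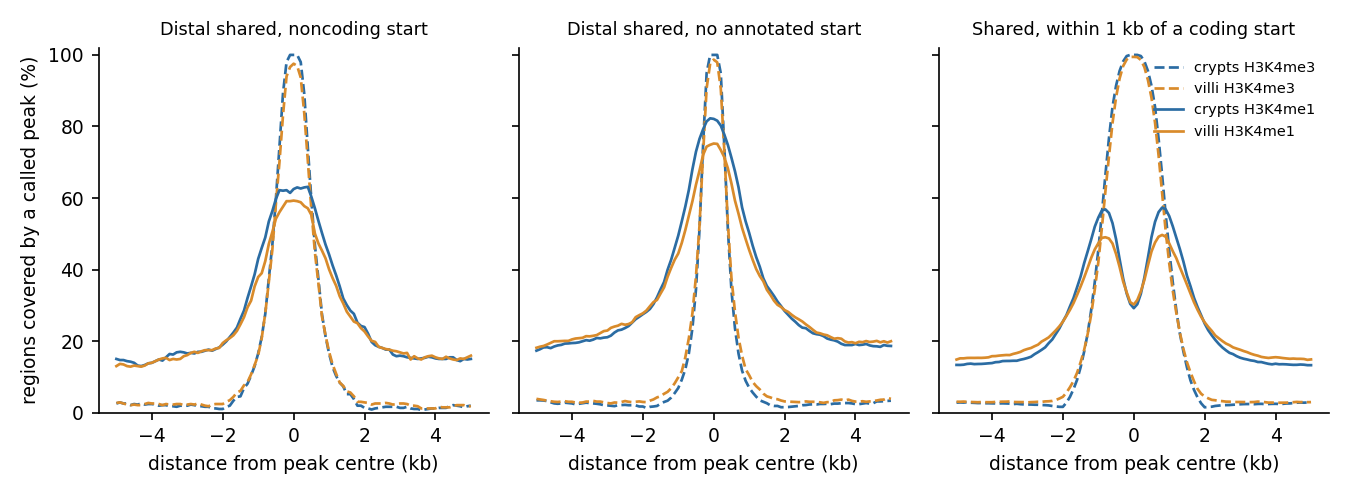
Share of regions (%) covered by a called H3K4me3 peak (dashed) or H3K4me1 peak (solid) at each distance (kb) from the centre of the crypts H3K4me3 peak, in crypts (blue) and villi (orange), for members with a noncoding start, members without one, and promoter peaks. Crypts H3K4me1 was highest over the centre of members without a GENCODE start, at 82.1%. It dipped to 29.2% over the centre of promoter peaks between shoulders of 54.6 and 55.0% at 1 kb.

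Width and score differ between members and promoter peaks, and both move with this measure. Among peaks of 700 to under 1500 bp, the centre was covered by crypts H3K4me1 at 81.7% of 1260 members and at 48.7% of 2520 promoter peaks, and among peaks of 1500 bp and wider at 55.4% of 484 members and 20.5% of 7146 promoter peaks. Under 700 bp, the shares were 83.0% of 882 members and 74.2% of 299 promoter peaks. Among the higher-scoring 50% of all peaks, the centre was covered at 30.9% of 223 members (25.2 to 37.3%) and at 18.1% of 7235 promoter peaks, and among the lower-scoring 50% at 81.6% of 2403 and 58.7% of 2730. Limited to the higher-scoring 50% of both H3K4me3 lists, 176 members were left and the centre was covered at 28.4% of them in crypts and 24.4% in villi. The difference between the sets had the same direction in each of these 5 strata and was smallest under 700 bp.

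Within the members, the centre was covered less often where a noncoding start was annotated. The share in crypts was 82.1% (80.4 to 83.8%) for members without a GENCODE start, 73.6% for noncoding transcripts of coding genes and 61.4% (56.5 to 66.0%) for long noncoding RNA genes. It was 60.0% for small RNA genes, 53.7% for pseudogenes and 38.8% (28.0 to 50.8%) for the 67 members at tRNA genes. Of these 67, 53 also counted as without a GENCODE start. The share was not recomputed for the 1673 members with neither a GENCODE nor a RefSeq start. Members with a start were wider, with a median of 1151 bp against 818 bp, and scored higher, with a median percentile of 32.3 against 20.3, and members at tRNA genes had 1755 bp and 46.9. At 1500 bp and wider the share was 40.7% of 214 with a start (34.3 to 47.3%) and 67.0% of 270 without (61.2 to 72.4%), at 700 to under 1500 bp 73.5% of 313 and 84.4% of 947, and under 700 bp 72.6% of 124 and 84.7% of 758. Among the lower-scoring 50% of the list it was 71.4% of 518 and 84.4% of 1885, and among the higher-scoring 50% it was 27.8% of 133 (20.9 to 36.0%) and 35.6% of 90 (26.4 to 45.8%), where the intervals overlapped. Overlap of any extent varied less, from 75.8% for pseudogenes to 90.2% for members without a start. H3K4me1 in neither compartment was recorded for 20 of 95 members at pseudogenes (21.1%) and for 123 of 1975 without a start (6.23%). By score, the highest members without H3K4me1 were those at Gm10060, at Gm43435 next to the small Cajal body RNA gene Scarna2 (1130 bp, score 409) and at Gramd1b.

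**Figure D3:**
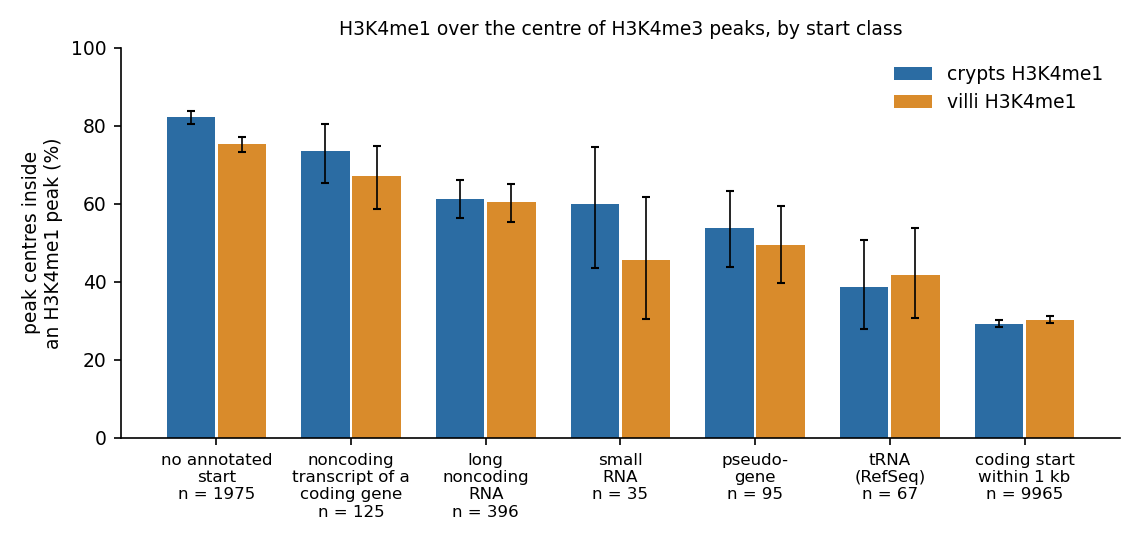
Share of peak centres (%) inside an H3K4me1 peak of crypts (blue) or villi (orange), for members by class of start, for members at RefSeq tRNA genes, which also fall in one of the first 5 classes, and for promoter peaks; error bars are 95% Wilson intervals. In crypts the shares fall from 82.1% without a GENCODE start to 38.8% at tRNA genes and 29.2% at promoter peaks.

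The X chromosome stood apart in H3K4me1. Of 60 members on X, 28 (46.7%, 34.6 to 59.1%) overlapped H3K4me1 in crypts and 13 (21.7%, 13.1 to 33.6%) in villi, against 89.9% and 86.2% of 2563 autosomal members. Promoter peaks on X had similarly low values, 45.4% and 26.3% of 315. A noncoding start was present at 22 of the 60 members (36.7%, 25.6 to 49.3%) and at 24.5% of autosomal members (22.9 to 26.2%), so the intervals overlapped. The sex of the animals is not given by the labels, and the part of chromosome copy number in these values was not tested.

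Seen from the H3K4me1 side, members were a small part of the distal sites. Of 31118 crypts H3K4me1 peaks more than 5 kb from coding starts, 2296 (7.38%, 7.09 to 7.67%) overlapped a member and 28050 overlapped no crypts H3K4me3 peak. Those with a member had a median width of 1767 bp (1689 to 1863) against 1377 bp (1363 to 1391) for those without H3K4me3. Their median rank by score was at the 66.1 percentile of the H3K4me1 list against 47.3. A wider H3K4me1 peak is more likely to meet a member by the construction of this split, so no reading is given of these differences.

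Members were narrow and low-scoring for the list. Their median width was 884 bp, against 1895 bp for promoter peaks, and their median score lay at the 22.9 percentile, with 223 members (8.49%) in the top 50%. Shared peaks at 1 to 5 kb were alike, with a median of 985 bp and the 22.9 percentile, and far peaks without a villi peak were narrower and weaker, with 549 bp and the 7.14 percentile. Starts, H3K4me1 at the centre and CpG content moved with the score. From the highest to the lowest quintile by crypts score, the share with a noncoding start fell from 49.0% (44.8 to 53.3%) to 12% (9.49 to 15.1%), the share with the centre under crypts H3K4me1 rose from 48.5% (44.2 to 52.8%) to 89.5% (86.6 to 91.9%), and the share that overlapped H3K4me1 at all stayed between 86.7% and 90.9%. The median CpG observed to expected ratio fell over the same quintiles from 0.552 (0.529 to 0.570) to 0.336 (0.312 to 0.346). The quintiles were cut on the score, from 89.3 upwards in the highest and from 16.9 downwards in the lowest.

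**Figure D4:**
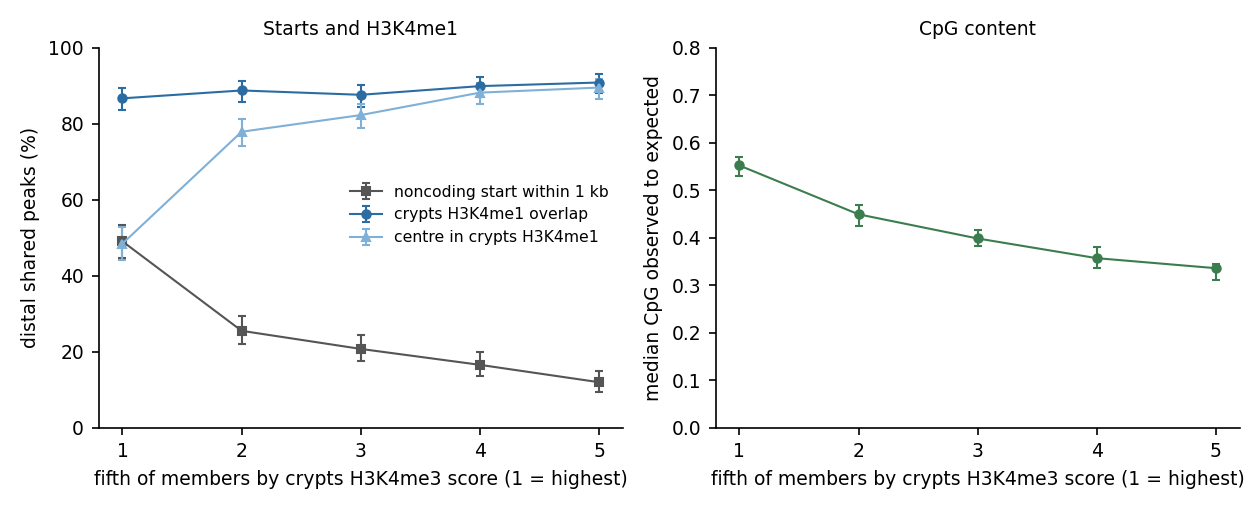
Left, share of members (%) with a noncoding start, with a crypts H3K4me1 overlap and with the centre in crypts H3K4me1, by quintile of crypts H3K4me3 score, the highest on the left; right, median CpG observed to expected ratio by quintile. Error bars are 95% intervals; noncoding starts fall from 49.0% to 12% and the CpG ratio from 0.552 to 0.336 while H3K4me1 overlap stays between 86.7% and 90.9%.

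CpG content of the members, as of the other peaks away from coding starts, was lower than that of promoter peaks. The median ratio was 0.410 (0.401 to 0.420) for members and 0.630 (0.626 to 0.633) for promoter peaks, and it was 0.392 (0.373 to 0.411) for shared peaks at 1 to 5 kb and 0.368 (0.352 to 0.388) for far peaks without a villi peak. Among the higher-scoring 50% of the list the medians were 0.594 (0.576 to 0.622) for members and 0.643 (0.639 to 0.648) for promoter peaks, and among the lower-scoring 50% 0.397 and 0.572. The ratio was 0.492 (0.473 to 0.519) for members with a noncoding start and 0.389 (0.380 to 0.399) for those without. Repeats, read from soft-masked bases of the reference, made up a median of 11.2% of a member and 10.1% of a promoter peak.

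The 11 motifs were searched on both strands of the central 300 bases, as exact letters except for CTCF, and none of the letter strings contains another. The GC box (GGGCGG) was found in 25.3% of members against 42.3% of all crypts H3K4me3 peaks, and the ETS letters (CCGGAAG) in 6.70% against 8.45%. AP-1 letters (TGANTCA) were found in 8.30% of members (7.31 to 9.42%) against 4.93% of all peaks, the CDX letters (TTTATTG) in 5.10% against 2.55%, the GATA letters (AGATAAG) in 3.88% against 2.15%, the HNF4 letters (CAAAGTCCA) in 1.18% against 0.522%, and TATAAA in 10.2% against 6.43%. CTCF matches were found in 19 members (0.724%) and in 0.334% of all peaks. The YY1 letters (AAGATGGC) were found in 1.45% against 2.15%, and those of the cyclic AMP response element (TGACGTCA) in 1.03% against 1.02%. The NRF1 letters (GCGCATGCG) were found in 21 members and in 144 of all peaks (0.873%). For AP-1, CDX and GATA the other peaks away from coding starts had shares whose intervals overlapped those of the members. The AP-1 letters were in 7.55% of the 1 to 5 kb peaks and 6.63% of the unshared far peaks. The CDX letters were in 4.47% and 5.50%, and the GATA letters in 4.93% and 4.69%. Intervals also overlapped for HNF4, with 0.924% and 0.971%, for TATAAA, with 9.86% and 12.9%, and for CTCF, with 0.770% and 0.809%. The GC box was in 25.3% of the 1 to 5 kb peaks and in 14.7% of the unshared far peaks (12.1 to 17.7%), the latter below the members. The AP-1 letters were in 4.76% of members with a noncoding start and in 9.47% of those without, and the GC box in 34.1% and 22.4%. Base composition differs between these sets, and its part in the shares was not tested.

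Other modifications were rare at the members. Villi H3K27me3, which the selection did not use, overlapped 64 members (2.44%, 1.91 to 3.10%) against 11.3% of all crypts H3K4me3 peaks. It overlapped 2.86% of promoter peaks, from which peaks with crypts H3K27me3 had been removed in the same way. By score these sets parted. In the lower-scoring part of the list the share was 2.62% of 2403 members (2.05 to 3.34%). For the 2730 promoter peaks there it was 8.79% (7.79 to 9.91%). In the higher-scoring part it was 0.448% of 223 members and 0.622% of 7235 promoter peaks, with overlapping intervals. The highest-scoring of the 64 were at the long noncoding RNA gene Gm48623 (1773 bp), 64162 bp from the start of Ywhaz (1253 bp) and in Prrt4, 5020 bp from the start of Rbm28 (1365 bp). H3K9me3 overlapped 2 members in crypts and 2 in villi, and the H3K9me2 lists, of 6 peaks in crypts and 3 in villi, overlapped 0. In the whole list H3K9me3 overlapped 12 peaks in crypts and 9 in villi and H3K9me2 1, so these marks were as rare there.

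The median width of the shared peaks was close between the compartments, and the ratio depended on the crypts width in its denominator. Of 2561 members that met a single villi peak that met no other crypts peak, the log2 ratio of villi width to crypts width had a median of -0.03 (-0.04 to -0.01), and it was -0.04 for promoter peaks. From the highest to the lowest quintile of crypts score, which moves with crypts width, the medians were -0.06, -0.07, -0.07, 0.04 and 0.23. Peaks that are narrow in crypts tend to be wider in villi by the construction of such a ratio, so no reading is given of this order. Peaks under 700 bp in crypts had a positive median in both sets, 0.08 for members and 0.10 for promoter peaks. The quartiles of the members were -0.21 and 0.21, and the 6 extremes lay at members without a GENCODE noncoding start, except that at Gm9515. The widest in villi relative to crypts were those nearest to Fblim1 (469 bp in crypts, 3679 bp in villi), Gm9887 (350 and 2129 bp) and Calml3 (372 and 1930 bp). The narrowest were in an intron of Fam107b (1823 and 343 bp), at the pseudogene Gm9515 (2201 and 532 bp) and near Ralgapb (1657 and 492 bp). The Fam107b member has a predicted RefSeq mRNA start. All 6 overlapped H3K4me1 in both compartments. They were picked for these ratios, and with 1 library per compartment no error can be given for them.

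By position, 955 members (36.4%, 34.5 to 38.2%) overlapped the body of a protein-coding gene, against 84.2% of all crypts H3K4me3 peaks, most of which lie on coding starts. An exon of a coding gene was touched by 314 members, 641 lay in introns only, and 1671 lay outside coding genes. Upstream and downstream sides of the nearest coding start were equally represented, with 1320 and 1306. The distance to that start was 5 to 10 kb for 572 members, 10 to 20 kb for 621, 20 to 50 kb for 778, 50 to 100 kb for 391, 100 to 500 kb for 251 and over 500 kb for 13. A crypts H3K4me1 peak was present at 92.5% of members at 5 to 10 kb and at 83.7% of those at 100 to 500 kb, and a noncoding start at 22.7% and 27.1%. Just inside the limit lay members at 5003, 5011 and 5014 bp, near Zfp462, Cdsn and Scamp5, and just outside it peaks at 5000, 4988 and 4981 bp. The widest members measured 3963, 3953 and 3928 bp, and 27 otherwise eligible peaks were 4023 bp or wider.

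Autosomes carried from 85 members (chromosome 14) to 199 (chromosome 11), or from 6.81 to 16.3 per 10 Mb. Members made up from 11.8% (chromosome 7) to 20.7% (chromosome 13) of the crypts H3K4me3 peaks of an autosome. The X chromosome held 60, or 3.51 per 10 Mb and 13.8% of its crypts H3K4me3 peaks, and the Y chromosome 3 of 7 such peaks. On chromosomes 11, 17 and 19, the densest in members, the shares were 14.5%, 17.5% and 15.8%, against an autosome median of 15.8%.

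**Figure D5:**
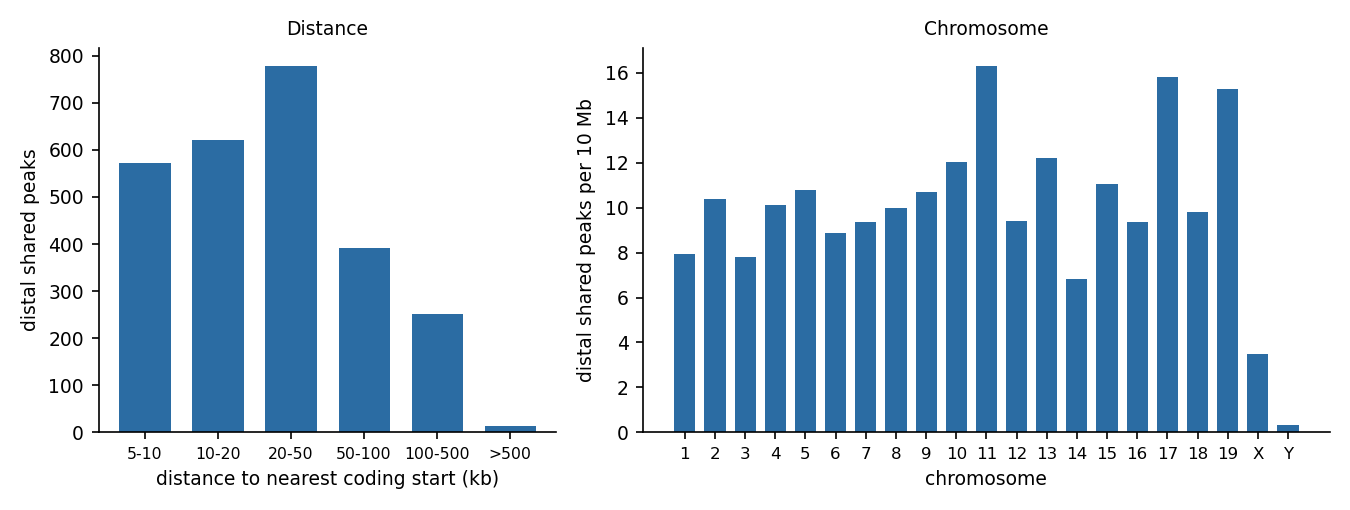
Left, number of members by distance (kb) to the nearest protein-coding start; right, members per 10 Mb of each chromosome. Most members lie within 50 kb of a coding start, and chromosomes 11, 17 and 19 carry the most per 10 Mb, X and Y the fewest. Of all crypts H3K4me3 peaks, members were 14.5%, 17.5% and 15.8% on chromosomes 11, 17 and 19. They were 13.8% on X, and the autosome median was 15.8%.

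Joined at gaps of up to 50 kb, the members formed 2061 groups, 1681 of them a single peak and 16 of 5 or more. The largest, of 10 members, lay between Zfp217 and Bcas1 at chr2:170153079-170324616, with crypts H3K4me1 at 9 of the 10, a noncoding start at 1 and widths of 796 to 2292 bp. A group of 9 at chr13:21158829-21327408 lay among Trim27, Gpx5, Gpx6 and Olfr1368, and all 9 were at tRNA genes. A group of 6 at chr17:36082904-36206529, in the class I histocompatibility region near H2-T3, had a noncoding or pseudogene start at each member. A group of 7 at chr6:128754158-128844133 lay near Klrb1, Klrb1b and Klrb1c, genes of natural killer cell receptors, with H3K4me1 at 6 members in crypts and 5 in villi. By nearest coding gene, the 2626 members fell to 2044 genes, of which 1647 had a single member. Tgif1, a homeobox repressor gene of TGF-beta signalling, had 9, Zfp217 and 1700001O22Rik had 7 each, and Maml3, a Notch coactivator gene, had 6.

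Transcription factors and signalling genes of the intestinal epithelium were examined as a list of 38 genes. Of these, 14 had a member nearest to them within 50 kb of their start, in all 19 members (0.724% of the set). That is 36.8% of the list, and over all 21842 protein-coding genes it was 1657 genes (7.59%), which include genes without H3K4me3 in crypts. Of the 9465 genes nearest to a promoter peak, 986 (10.4%) had a member in this way, and of the 11 listed genes among them 5. These counts are descriptions, since the list was chosen with results known. Crypts H3K4me1 overlapped 19 of the 19 and villi H3K4me1 18, near the 88.8% and 84.7% of all members, and 1 had a noncoding start, the member in Creb3l3. Gata4 had 3 members and Cdx2, Gata5 and Hnf4a had 2 each. The widest was 5542 bp upstream of Cdx2, an intestinal identity factor, at chr5:147312812-147316593, with 3782 bp and crypts H3K4me1 over 97.4% of its length. The members at Hnf4a, a nuclear receptor of enterocytes, were 437 and 667 bp wide, with scores of 13.3 and 11.7, inside crypts H3K4me1 peaks of 17301 and 13739 bp. The Gata4 members lay 7936, 9591 and 12300 bp from its start and 2 of them shared 1 crypts H3K4me1 peak of 11868 bp. The member near Axin2, a Wnt target gene, was 1535 bp wide and lay wholly under H3K4me1 in both compartments.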

How the data were processed

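Peak lists of intestinal crypts and villi were analysed for H3K4me3, H3K4me1, H3K27me3, H3K9me2 and H3K9me3, with 1 library per compartment and modification. Villi were scraped off and crypts released with EDTA, and the amounts of chromatin and beads differ between methods and labels. The authors aligned reads with Bowtie 1.1.2 to mm10 (GRCm38), keeping 1 alignment per read, removed duplicates and called peaks against input with MACS2 2.1.1 (versions per the submitters' processing notes). How the H3K9me2 lists were called is not given in the sources used here. The deposited score of each peak was read as −log10 of the p-value, because the lowest values lie at the stated limit of 10, and a q-value cannot be told apart from it by the values. The lists carry no read counts, so the depth behind each peak is unknown. The 2 inputs were not used here.

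Overlaps, widths and distances were computed with Python 3.11.15, NumPy 2.4.6 and pysam 0.24.0 and drawn with Matplotlib 3.10.9, and the scripts were tested on simulated data. Start sites came from GENCODE mouse release M21, other starts and sequences from RefSeq GRCm38.p6. A start counted as near at up to 1 kb, an overlap from 1 bp. The CpG ratio is the number of CpG dinucleotides over that given by the C and G content.

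The members and gene lists were chosen with earlier results of these data known. Members were named by crypts score within each class of start, by lack of H3K4me1, by extreme width ratio, by villi H3K27me3, and, up to 12, from the lists of small nucleolar RNA hosts, nuclear long noncoding RNAs, microRNA genes and intestinal regulators. Further members of these lists and of the tRNA genes, groups and nearest genes were named after their values were seen. Alternatives varied the start sites, distance, overlap, width and score limits, windows and chromosomes. The sequences of tRNA genes are not reported here.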

Additional observations from a re-analysis of the deposited data

How the results depend on the processing

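The number of members was 2054 beyond 10 kb, 2396 with starts of all transcripts of coding genes, 2415 with a reciprocal overlap of 50%, 2371 with RefSeq mRNA starts also left out, 2563 on autosomes and 2653 without the width limit. Apart from the values given here, the shares with a noncoding start, a long noncoding RNA start, H3K4me1 overlap or H3K4me1 at the centre, in gene bodies and with villi H3K27me3, and the medians of width ratio, score, CpG and repeats moved by less than their interval. Other values were not recomputed. Limited to the top 50% of both H3K4me3 lists by score, 176 members were left. Of these, 60.8% had a noncoding start, 87.5% overlapped crypts H3K4me1 and 80.1% villi H3K4me1, 21.02% a coding gene body and 0% villi H3K27me3. A long noncoding RNA start was at 43.2%, and H3K4me1 lay at the centre of 28.4% in crypts and 24.4% in villi (alternatives chosen after seeing the data). Their median log2 width ratio was -0.064, score percentile 64.3, CpG ratio 0.602 and soft-masked share 12.6%. With starts of all transcripts of coding genes, noncoding starts came to 20.99% and gene bodies to 31.1%. With RefSeq mRNA starts also left out, an alternative chosen after seeing the data, they came to 22.9% and 33.4%. A window of 2 kb gave 28.8% with a noncoding start. When 50% of the member had to be covered, H3K4me1 came to 80.5% in crypts and 74.1% in villi, and with the top 50% of the H3K4me1 lists to 63.2% and 59.1%. On autosomes alone villi H3K4me1 was 86.2%. Beyond 10 kb gene bodies were 32.2%. A reciprocal overlap of 50% with the villi peak gave a score percentile of 23.9 and a CpG ratio of 0.421. The top 50% of the villi H3K27me3 list overlapped 1.07%. The central 300 bases had a CpG ratio of 0.442 and a soft-masked share of 7.67%. The causes of these shifts were not tested. No paired analysis was possible because each compartment had 1 library per modification and no result came from a test, so no library could be left out either.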
